A study of Mus musculus with 9 samples.

Results

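The Hox genes of the mouse were followed across 9 Affymetrix arrays of embryonic neurospheres. Members were all probe sets whose platform symbol is 1 of 38 named Hox genes: 10 of the HoxA cluster, 10 of HoxB, 9 of HoxC and 9 of HoxD. Of these 38 genes, 33 had at least 1 probe set of their own symbol, 48 such probe sets in all, among 18194 genes and 45101 probe sets on the array. A further 3 probe sets carried 2 Hox symbols each, which is the single measurement here of Hoxb8 and Hoxd4. Hoxa6, Hoxc11 and Hoxc12 were not analysed here. Of the 33 genes, 21 reached a log2 value of 5 on at least 3 arrays and were tested, among 10320 genes tested in all.

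All spheres came from C57BL/6J embryos of embryonic day 12.5 and were used at passage 3, with 3 arrays a group and no genetic change stated. The SCSC group was grown from spinal cord in serum-free medium with heparin, the supplements N2 and B27, and bFGF and EGF at 20 ng/ml each. The rNCSC group was grown from dorsal root ganglia (DRG, the sensory ganglia beside the cord) in the same medium. The BMP NCSC group was likewise of DRG origin and received BMP4 at 10 ng/ml besides. A sphere culture is a mixed population. Nothing in the labels ties the arrays to separate litters or cultures, so p-values here reflect only how far these arrays spread, which may be technical.

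Hox genes encode homeodomain transcription factors that give cells their position along the head to tail axis. The mouse has them in clusters, and genes at matching places in different clusters form paralogue groups. Low group numbers are used in the hindbrain and neck, high numbers toward the tail, and in the spinal cord their combination sets motor neuron identity at brachial, thoracic and lumbar levels. Neural crest cells leave the neural tube with a Hox code of the level they come from. Retinoic acid opens the low-numbered genes, Cdx factors act on the middle and high ones, and Polycomb and MLL complexes keep the clusters shut or open.

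Start-site sequences are shown for 4 genes on which the results below turn: the neighbours Hoxd10 and Hoxd9, which were high together on 1 rNCSC array, Hoxd3 from the other side of the same cluster, and Hoxc4, the tested Hox gene with the greatest difference between SCSC and BMP NCSC. Each runs 5′ to 3′ from 250 bases before to 50 bases after the gene's start (RefSeq, GRCm38.p6, plus strand). Capitals mark matches, on either strand, to the retinoic acid receptor half-site AGGTCA or the Cdx motif TTTATG.
Hoxd10, chr2:74691641-74691940: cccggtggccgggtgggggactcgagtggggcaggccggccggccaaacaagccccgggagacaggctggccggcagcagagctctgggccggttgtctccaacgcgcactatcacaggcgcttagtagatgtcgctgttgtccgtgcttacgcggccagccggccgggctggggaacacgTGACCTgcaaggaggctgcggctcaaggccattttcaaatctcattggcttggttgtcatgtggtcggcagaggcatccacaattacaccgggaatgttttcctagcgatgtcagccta
Hoxd9, chr2:74697513-74697812: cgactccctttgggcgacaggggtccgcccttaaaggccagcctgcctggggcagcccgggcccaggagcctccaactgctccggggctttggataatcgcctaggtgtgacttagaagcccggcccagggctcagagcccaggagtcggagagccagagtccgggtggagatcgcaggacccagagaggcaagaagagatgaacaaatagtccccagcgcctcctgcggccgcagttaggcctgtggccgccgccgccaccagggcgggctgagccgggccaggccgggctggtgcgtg
Hoxd3, chr2:74711743-74712042: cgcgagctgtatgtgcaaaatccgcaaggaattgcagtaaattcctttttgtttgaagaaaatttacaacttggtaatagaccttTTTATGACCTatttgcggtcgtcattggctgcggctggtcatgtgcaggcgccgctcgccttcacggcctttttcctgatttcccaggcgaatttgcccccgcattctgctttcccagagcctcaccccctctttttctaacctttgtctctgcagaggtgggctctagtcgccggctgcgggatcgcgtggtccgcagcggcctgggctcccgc
Hoxc4, chr15:103034145-103034444: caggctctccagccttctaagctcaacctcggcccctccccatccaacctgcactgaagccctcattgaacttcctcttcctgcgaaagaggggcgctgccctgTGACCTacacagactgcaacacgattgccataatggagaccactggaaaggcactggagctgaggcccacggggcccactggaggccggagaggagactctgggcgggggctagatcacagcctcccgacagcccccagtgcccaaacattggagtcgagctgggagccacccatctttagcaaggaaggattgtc
The Hoxd10 and Hoxc4 windows each held 1 half-site and the Hoxd9 window none of the motifs searched. In the Hoxd3 window a half-site and a Cdx match overlapped in the run TTTATGACCT. All 4 windows were richer in G and C than the median promoter, at 62.7% for Hoxd10, 68.3% for Hoxd9, 54% for Hoxd3 and 60.3% for Hoxc4 against 52.7%. They held 22, 20, 20 and 9 CpG dinucleotides in that order, against a median of 7. The promoter table held 24 entries for 22 of the Hox genes. The half-site lay in 7 of the 24 and in 16.3% of 32851 promoters of the same length, TTTATG in 5 of the 24 and in 11.9%, and the Hox-Pbx motif TGATNNAT, searched likewise, in 4 of the 24 and in 8.85%. A match is a run of letters and not a shown binding site.

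The arrays were alike in scale, with medians from 3.99 to 4.03 and 38.7% to 39.9% of probe sets at 5 or more. The labelled kinds of cell were checked first. The 7 CNS progenitor markers were high in both rNCSC and SCSC and near the bottom of the scale in BMP NCSC, Olig2 for example at 12.10, 12.14 and 1.47. Crest markers, which DRG cells would carry, were low in rNCSC: Sox10 was at 4.14 ± 0.17 (SD, n = 3) there, 4.05 ± 0.15 in SCSC and 11.56 ± 0.22 in BMP NCSC. Cartilage and mesenchyme markers were high in BMP NCSC, such as Col2a1 at 14.17 against 3.18 in rNCSC. In both comparisons the tested CNS progenitor markers were called higher than in BMP NCSC for 7 of 7. Crest markers were called lower for 5 of 5, cartilage and mesenchyme markers for 8 of 8 and meningeal markers for 2 of 2. Called genes here are those with a limma adjusted p below 0.05 that differ by 1 or more on the log2 scale. For rNCSC and SCSC, 21.3% and 24% of all genes were called higher and 22.6% and 22.9% lower. The CNS progenitor markers reached 5 on no BMP NCSC array, and the others, except Tfap2a, Twist1 and Prrx1, on BMP NCSC arrays alone. Apart from these exceptions the directions were set by the filter for testing, so the counts add no support beyond the levels themselves. Spinal neuron markers went both ways: of 3 tested, Rbfox3 was higher by 2.58 in rNCSC and 2.87 in SCSC, Syt1 was lower at -2.55 and -2.49, and Snap25 was lower in rNCSC, at -1.88, and not called in SCSC. Markers of sensory neurons, endothelium, microglia, erythroid cells and muscle did not reach the level for testing. Nor did the meningeal markers Crabp2, Slc6a13, Aldh1a2 and Foxc2, with BMP NCSC means of 3.24, 2.56, 3.34 and 5.81. Each Hox difference against BMP NCSC below therefore stands beside a change in the kinds of cell, whose part in it was not tested. Fewer cells of a type and less RNA per cell cannot be told apart in such samples.

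For the Hox genes, rNCSC replicate 3 stood apart from the other 2 rNCSC arrays. It was the highest rNCSC array for 15 of 21 tested Hox genes, against 42% of all tested genes, and rNCSC replicate 2 was the lowest for 14 of 21, against 34%. On rNCSC replicate 3, 8 of the 21 lay at least 1 above every SCSC array, against 2.44% of all tested genes: Hoxa9, Hoxa10, Hoxc4, Hoxc8, Hoxc9, Hoxc10, Hoxd9 and Hoxd10. Hoxd10 passed the filter for testing only with this array, so its place in these counts is no support. Hoxa7 alone of the 21 lay that far below every SCSC array there, against 1.96%. The counts were 3 above on rNCSC replicate 1 (0.475% of all genes) and 0 on rNCSC replicate 2 (0.291%). Summed on the linear scale, the CNS progenitor markers lay between 15.43 and 15.48 (log2) over the 3 rNCSC arrays and the 6 measured crest markers between 6.02 and 6.48. Such a sum follows its highest members, such as Fabp7 at 14.46, 14.47 and 14.39, and cannot show changes in the lower ones. The 11 cartilage and mesenchyme markers lay between 7.12 and 7.83, and the 6 meningeal ones between 5.18 and 5.72. Single markers differed: the CNS progenitor marker Prom1 was at 8.37, 8.60 and 6.81 on rNCSC replicates 1, 2 and 3 and Sox1 at 8.28, 6.90 and 7.51. The crest factor Tfap2a was at 3.48, 5.18 and 3.51, the mesenchyme factor Twist1 at 2.64, 2.75 and 5.48, and Prrx1, also of mesenchyme, at 7.26, 6.54 and 4.46. Patterning genes chosen after their values were seen differed as well. The retinoic acid receptor Rarb was at 4.38, 3.57 and 7.95 on these arrays and the midbrain and hindbrain factor En2 at 7.52, 3.47 and 9.80. Their part in the Hox values was not tested. Results for rNCSC are given with and without this array where it changed them.

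**Figure D1:**
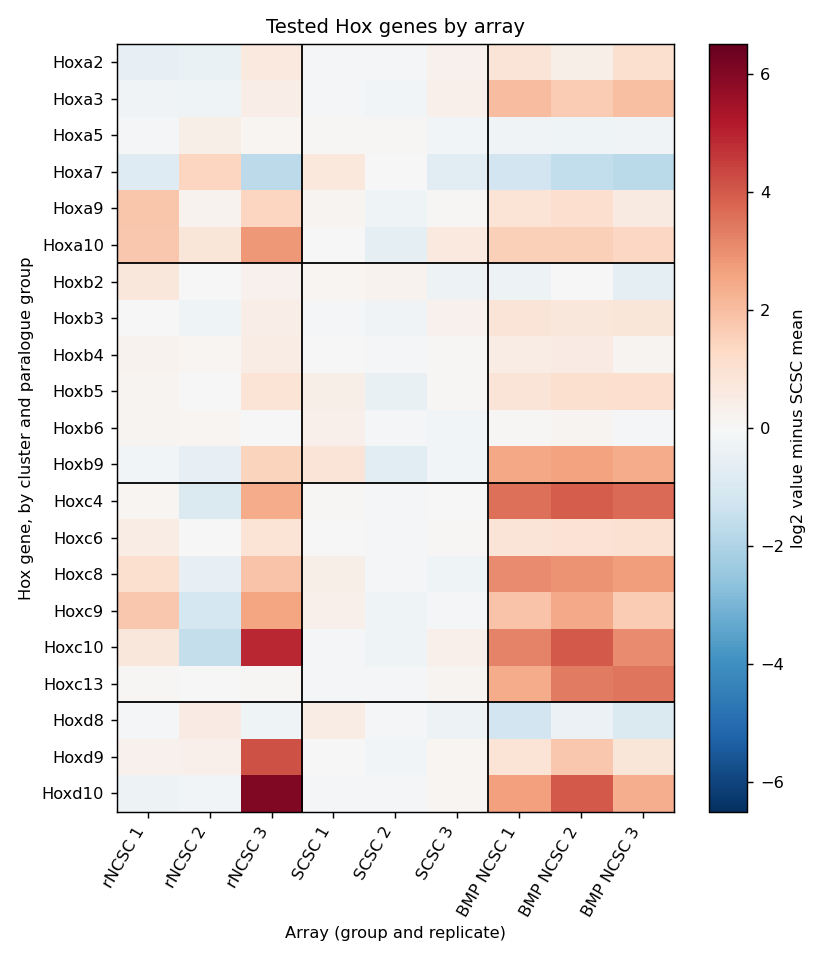
Log2 value of each tested Hox gene on each array minus that gene's SCSC mean, with genes in rows by cluster and paralogue group and arrays in columns by group and replicate. Red is higher and blue lower than the SCSC mean, and the column of rNCSC replicate 3 holds the strongest red cell, Hoxd10 at 6.01. Hoxd10 passed the filter for testing only with that array.

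Hox genes with a value on these arrays ran from paralogue group 2 to group 13. Tested genes were Hoxa2, Hoxa3, Hoxa5, Hoxa7, Hoxa9 and Hoxa10 in HoxA, Hoxb2 to Hoxb6 and Hoxb9 in HoxB, Hoxc4, Hoxc6, Hoxc8, Hoxc9, Hoxc10 and Hoxc13 in HoxC, and Hoxd8, Hoxd9 and Hoxd10 in HoxD. The other 12 did not pass. Of these, 9 stayed under 4 on every array, namely Hoxa11, Hoxa13, Hoxb1, Hoxb7, Hoxb13, Hoxd1, Hoxd11, Hoxd12 and Hoxd13. Hoxa4 reached 4.35 at most. Hoxc5 reached 5.23 and passed 5 on 2 arrays, both BMP NCSC, with means of 3.68 in rNCSC, 3.09 in SCSC and 4.98 in BMP NCSC. Hoxd3 passed 5 on 1 array. Of 11 Hox genes with several probe sets, the one with the highest mean stood for the gene. Hoxc13 alone among the 21 passed solely through BMP NCSC, so its direction against that group was set by the filter and it is no support for a trend. Hoxc10, Hoxd9 and Hoxd10 reached 5 on no SCSC array and on fewer than 3 rNCSC arrays. Hoxc10 and Hoxd9 reached 5 on every BMP NCSC array, which was enough to pass. Hoxd10, at 5.21, 6.55 and 4.88 on those arrays, passed only with rNCSC replicate 3, where it was at 8.55. It is thus no support for how far that array stood apart. For each of these genes the direction for SCSC against BMP NCSC had to be lower. Without rNCSC replicate 3, Hoxd9 and Hoxd10 reached 5 on BMP NCSC arrays alone, so their direction for rNCSC was then set as well. Counts and medians that hold these 4 genes carry those limits.

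The comparison of rNCSC with SCSC asks whether DRG spheres grown without BMP4 carry the Hox levels of spinal cord spheres. No Hox gene was called, 0 of 21 either way (limma, over 10320 genes). The background was 0% of all genes called higher and 0.00969% called lower, a single gene. At an unadjusted p below 0.05 there were 3 of 21, namely Hoxa9, Hoxa10 and Hoxc6, against 13.7% of all genes. The fitted difference was above 0 for 18 of 21, with a median of 0.32 beside -0.04 over all genes. It was above 0 for 14 of 21, with a median of 0.17, when rNCSC replicate 3 was left out. By paralogue group the medians were 0.01 for groups 1 to 3 (4 genes), 0.32 for groups 4 to 5 (4 genes), 0.11 for groups 6 to 8 (5 genes) and 1.26 for groups 9 to 13 (8 genes). By cluster they were 0.05 in HoxA, 0.27 in HoxB, 0.66 in HoxC and 1.59 in HoxD. The high medians rested on rNCSC replicate 3. Without it they were -0.20, 0.12, 0.26 and 0.17 over the same paralogue groups and 0.21, 0.13, 0.15 and 0.23 in HoxA, HoxB, HoxC and HoxD. Without rNCSC replicate 2, the median of groups 9 to 13 was 2.18. Genes with an absolute difference of at least 1 numbered 6, all in groups 9 to 13, beside 1.55% of all genes. They numbered 2 without rNCSC replicate 3, Hoxa9 at 1.02 and Hoxa10 at 1.25, and 9 without replicate 2. Arrays of both groups did not overlap for 4 Hox genes, each time with rNCSC above (5.62% of all genes): Hoxa9, Hoxa10, Hoxb4 and Hoxd9. With rNCSC below there were 0, beside 15.1% of all genes.

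Hoxa10, a lumbar gene that helps set the start of the ribless spine, was at 10.17, 9.20 and 11.23 on the rNCSC arrays and 8.44, 7.82 and 9.05 on the SCSC arrays. Every rNCSC array lay above every SCSC array, rNCSC replicate 2 only just. The difference was 1.77 (SE 0.48, 95% confidence interval 0.67 to 2.86), which missed the threshold after adjustment (limma, adjusted p = 0.211). Hoxa9, its neighbour, which acts at thoracic and lumbar levels, was at 12.73, 11.15 and 12.33 in rNCSC and 11.10, 10.66 and 11.02 in SCSC. The rNCSC arrays were all higher, replicate 2 by the least. The difference was 1.15 (SE 0.36, interval 0.32 to 1.97; limma, adjusted p = 0.244).

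Both HoxD genes of this end of the cluster, Hoxd9 and Hoxd10, whose start regions are printed above and which act in lumbar motor neurons and the limb, rested on 1 array. Hoxd9 was at 4.79, 4.82 and 8.63 in rNCSC and 4.54, 4.32 and 4.62 in SCSC. Hoxd10 was at 2.22, 2.38 and 8.55 in rNCSC and 2.47, 2.48 and 2.67 in SCSC. For both, rNCSC replicates 1 and 2 lay no more than 0.32 from the SCSC mean and replicate 3 lay 4.14 and 6.01 above it. The intervals were wide, -0.50 to 3.67 for Hoxd9 and -1.55 to 5.24 for Hoxd10, which is named after its values were seen. Without rNCSC replicate 3 the differences were 0.31 for Hoxd9 and -0.24 for Hoxd10.

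**Figure D2:**
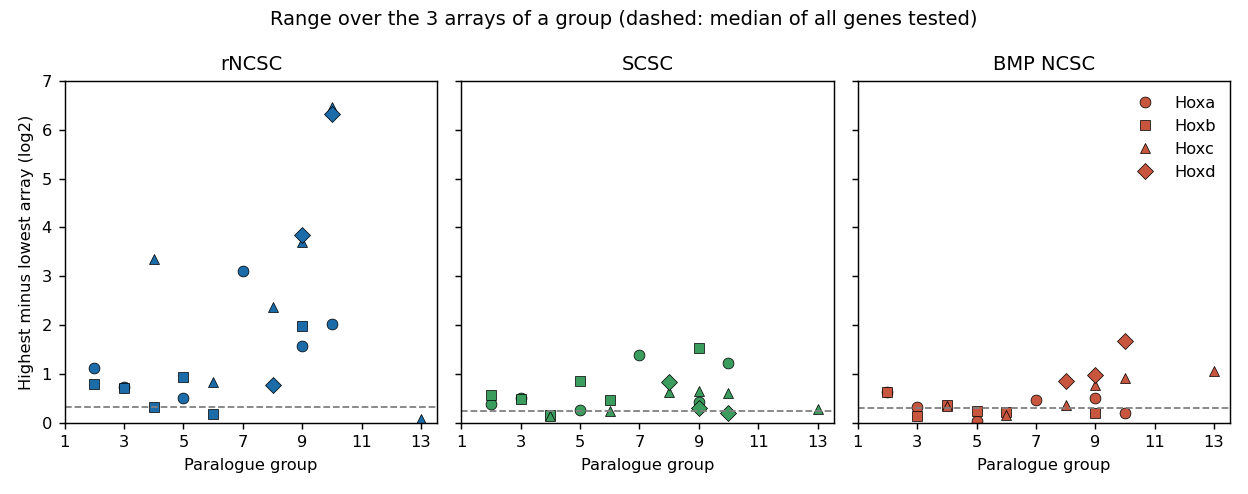
Highest minus lowest log2 value over the 3 arrays of each group (vertical axis) against paralogue group (horizontal axis) for the 21 tested Hox genes, with symbol shape for the cluster and a dashed line at the median of all tested genes. The rNCSC panel has 8 genes at 2 or more, up to 6.48 for Hoxc10, and the other panels have 0.

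The posterior genes spread most within rNCSC. The range over the 3 arrays was at least 2 for 8 of 21 Hox genes in rNCSC, beside 2.28% of all genes, and for 0 of 21 in SCSC (0.136%) and 0 of 21 in BMP NCSC (1.33%). The 8 were Hoxa7, Hoxa10, Hoxc4, Hoxc8, Hoxc9, Hoxc10, Hoxd9 and Hoxd10, the last tested only because rNCSC replicate 3 was high. The median Hox range was 1.12 in rNCSC, 0.49 in SCSC and 0.37 in BMP NCSC, beside 0.32, 0.24 and 0.29 over all genes. In rNCSC it was 2.87 for groups 9 to 13, of which 5 of 8 reached 2, and 0.76 for groups 1 to 3, of which 0 of 4 did. Between these it was 0.72 for groups 4 to 5, with 1 of 4, and 0.85 for groups 6 to 8, with 2 of 5. Replicate 3 was the highest rNCSC array for 7 of 8 genes of groups 9 to 13 and replicate 2 the lowest for 6 of 8. Relative to the SCSC mean, the median of these 8 genes was 0.53 on rNCSC replicate 1, -0.07 on replicate 2 and 2.68 on replicate 3. These are descriptions of 3 arrays, with no test.

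The HoxC genes showed the same order of arrays. Hoxc10, a lumbar motor neuron gene, was at 5.32, 2.99 and 9.47 in rNCSC and 4.49, 4.29 and 4.90 in SCSC. Hoxc9, which sets thoracic identity and holds back brachial genes, was at 6.88, 3.99 and 7.70 in rNCSC and 5.49, 4.84 and 5.08 in SCSC. Hoxc4, a neck-level gene, was at 5.17, 4.12 and 7.48 in rNCSC and 5.12, 4.99 and 5.04 in SCSC. For each of these genes rNCSC replicate 2 was below all SCSC arrays and replicate 3 above them all. Hoxa7, a thoracic gene named after its values were seen, ran the other way, at 7.35, 9.58 and 6.47 in rNCSC and 8.88, 8.19 and 7.50 in SCSC, highest on rNCSC replicate 2 and lowest on replicate 3. Leaving out replicate 2 brought 2 Hox calls, both higher in rNCSC: Hoxa9 at 1.61 (limma, adjusted p = 0.0186) and Hoxc9 at 2.15 (limma, adjusted p = 0.0334). No other array, left out in turn, brought a Hox call here.

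The comparisons with BMP NCSC ask how Hox levels in DRG spheres depended on BMP4, and how SCSC stood against the treated spheres. The comparisons share the BMP NCSC arrays. Of 21 Hox genes, 5 were called lower in rNCSC than in BMP NCSC (22.6% of all genes) and 0 higher (21.3%). The numbers for SCSC against BMP NCSC were 8 lower (22.9%) and 0 higher (24%). The 5 were Hoxa3, Hoxb9, Hoxc4, Hoxc8 and Hoxc13, and they were also among the 8, with Hoxa10, Hoxc9 and Hoxc10. Without rNCSC replicate 3 the lower calls numbered 8 for rNCSC, with Hoxa2, Hoxc10 and Hoxd10 added, and 10 for SCSC. The direction of Hoxd10 was then set by the filter. The higher calls without that array numbered 2 and 1. Without SCSC replicate 2 the lower calls for SCSC numbered 5. At an unadjusted p below 0.05 there were 12 of 21 in the first comparison (79.2% of all genes) and 15 of 21 in the other (80.8%). The median Hox difference was -0.64 for rNCSC and -0.998 for SCSC, beside 0.07 and 0.10 over all genes. The rNCSC median was -0.91 without rNCSC replicate 3, -0.16 without rNCSC replicate 2 and -0.11 with no filter. For rNCSC against BMP NCSC 5 of 21 is close to the share of all genes called lower. Arrays did not overlap with the first group below for 6 of 21 in rNCSC (37.2% of all genes) and 16 of 21 in SCSC (38.6%). With the first group above, the numbers were 2 (42.4%) and 3 (45%).

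**Figure D3:**
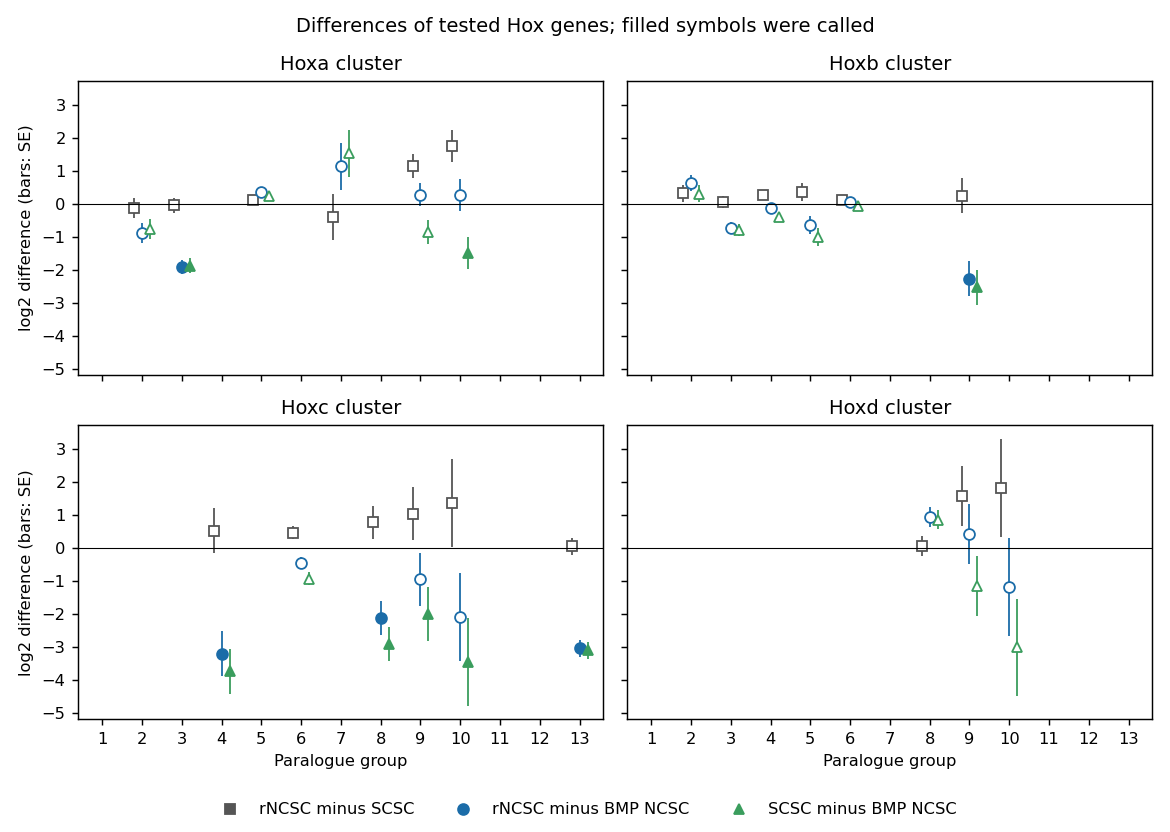
Log2 difference (vertical axis, bars are the standard error) of the 21 tested Hox genes against paralogue group (horizontal axis), 1 panel a cluster, for rNCSC minus SCSC (squares), rNCSC minus BMP NCSC (circles) and SCSC minus BMP NCSC (triangles). Filled symbols were called, and 5 of 6 HoxC triangles are filled against 0 of 3 in HoxD.

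By cluster, lower calls in SCSC against BMP NCSC numbered 2 of 6 in HoxA, 1 of 6 in HoxB, 5 of 6 in HoxC and 0 of 3 in HoxD. The medians were -0.80, -0.59, -3.00 and -1.14. For rNCSC against BMP NCSC they numbered 1 of 6, 1 of 6, 3 of 6 and 0 of 3, with medians of 0.29, -0.37, -2.09 and 0.44. The rNCSC counts without replicate 3 were 2, 1, 4 and 1 and the medians -0.03, -0.56, -2.85 and -0.83, so that the signs of HoxA and HoxD turned. Without rNCSC replicate 2 the HoxC median was -1.03 and the HoxD median 0.71. In SCSC, leaving out rNCSC replicate 3 brought 2 of 3 lower calls in HoxD. All 6 tested HoxC genes had fitted differences below 0 in both comparisons, though Hoxc13, and Hoxc10 in SCSC, had to. By paralogue group, SCSC was called lower for 1 of 4 in groups 1 to 3, 1 of 4 in groups 4 to 5, 1 of 5 in groups 6 to 8 and 5 of 8 in groups 9 to 13. The medians were -0.77, -0.69, -0.06 and -2.25. For rNCSC the counts were 1 of 4, 1 of 4, 1 of 5 and 2 of 8 and the medians -0.80, -0.37, 0.06 and -1.05. Leaving out rNCSC replicate 3 gave 2 of 4, 1 of 4, 1 of 5 and 4 of 8, with medians of -1.07, -0.56, 0.11 and -2.28. Without rNCSC replicate 2, the median of groups 9 to 13 was near 0, with 4 of 8 differences above it.

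**Figure D4:**
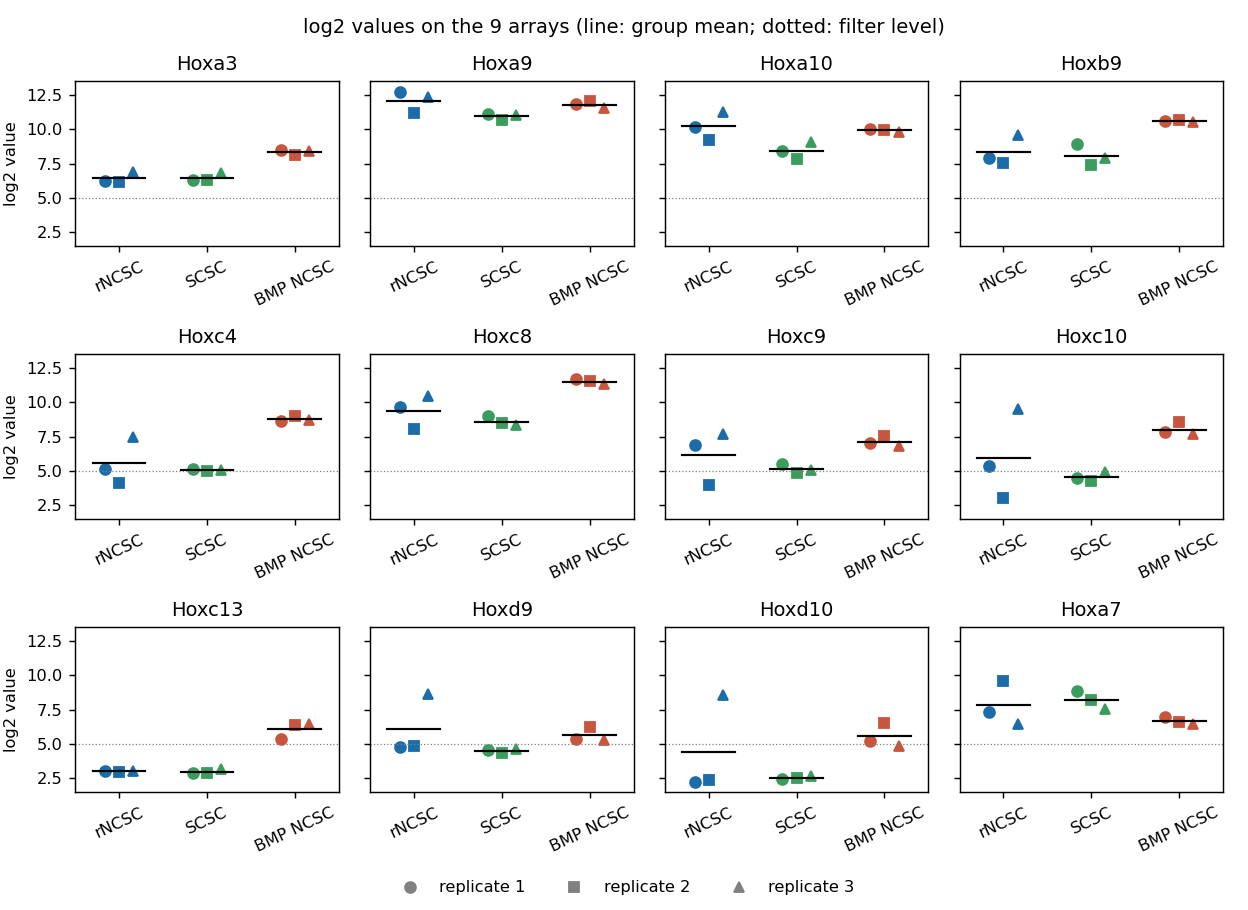
Log2 values (vertical axis) of 12 Hox genes on the 3 arrays of rNCSC (blue), SCSC (green) and BMP NCSC (red), with symbol shape for the replicate, a line at the group mean and a dotted line at the filter level of 5. The BMP NCSC arrays lie close together for Hoxc8, from 11.29 to 11.65, while the rNCSC arrays run from 8.07 to 10.44.

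In the HoxC cluster, Hoxc4, whose start region is printed above, was at 8.63, 8.98 and 8.74 on the BMP NCSC arrays. All rNCSC and SCSC arrays, given before, lay below these, rNCSC replicate 3 by the least. The difference was -3.73 (SE 0.69; limma, adjusted p = 0.000989) for SCSC and -3.19 (SE 0.69; limma, adjusted p = 0.00257) for rNCSC, so that BMP NCSC stood 13.3-fold above SCSC on the deposited scale. Hoxc8, which acts in brachial motor pools, was at 9.61, 8.07 and 10.44 in rNCSC, 8.96, 8.47 and 8.33 in SCSC and 11.65, 11.52 and 11.29 in BMP NCSC. Again no rNCSC or SCSC array reached the lowest BMP NCSC array. It was lower by a log2 difference of -2.90 (SE 0.51; limma, adjusted p = 0.000693) in SCSC and -2.11 (SE 0.51; limma, adjusted p = 0.00451) in rNCSC.

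The thoracic and lumbar genes Hoxc9 and Hoxc10 were called lower in SCSC than in BMP NCSC. Hoxc9 was at 7.01, 7.57 and 6.79 in BMP NCSC and Hoxc10 at 7.81, 8.56 and 7.65. All SCSC arrays lay below these, while rNCSC replicate 3 lay above every BMP NCSC array for both genes. For SCSC the differences were -1.99 (SE 0.81; limma, adjusted p = 0.0472) for Hoxc9 and -3.44 (SE 1.33; limma, adjusted p = 0.0395) for Hoxc10. Both calls were lost without rNCSC replicate 1 or without any 1 of the SCSC or BMP NCSC arrays, with a limma adjusted p of up to 0.123 for Hoxc9 and 0.101 for Hoxc10. With the 6 SCSC and BMP NCSC arrays alone it was 0.000226 and 2.18e-05, where the direction of Hoxc10 was set by the filter. For rNCSC they were -0.94 and -2.08, with intervals of -2.78 to 0.91 and -5.12 to 0.97. Whether the SCSC and rNCSC differences differ is the rNCSC against SCSC comparison, which gave no call for either gene. Without rNCSC replicate 3 the Hoxc10 difference of rNCSC from BMP NCSC was -3.85 (limma, adjusted p = 0.000595). Hoxc13, best known from hair and nail, was at 3.05, 2.98 and 3.05 in rNCSC, 2.86, 2.90 and 3.15 in SCSC and 5.39, 6.37 and 6.44 in BMP NCSC, so it was near the bottom of the scale outside BMP NCSC and the size of its difference is uncertain.

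Hoxc6, a brachial gene, depended on the probe set. The one that stood for the gene gave differences of -0.44 (rNCSC) and -0.92 (SCSC) from BMP NCSC, neither called. The other pair gave -1.68 and -1.45 for rNCSC and -2.14 and -1.85 for SCSC, all called lower. The probe set at -1.45 and -1.85 reached 5 on BMP NCSC arrays alone, so both its directions were set by the filter. Its SCSC mean was 3.78, where size is uncertain. The probe set at -1.68 and -2.14 reached 5 on no SCSC array, which set its SCSC direction. Among 7 Hox genes with several tested probe sets Hoxc6 was the only 1 whose calls differed, in either comparison with BMP NCSC. In rNCSC against SCSC, Hoxa3 and Hoxb3 had probe sets of opposite sign, at -0.04 and 0.04 for Hoxa3 and 0.06 and -0.12 for Hoxb3.

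In HoxA the low-numbered Hoxa3, needed for thymus and parathyroid and active in neck-level crest, was at 6.23, 6.18 and 6.91 in rNCSC, 6.34, 6.29 and 6.81 in SCSC and 8.46, 8.14 and 8.42 in BMP NCSC. The BMP NCSC arrays were all above the rest. The differences were -1.90 (SE 0.22; limma, adjusted p = 5.58e-05) for rNCSC and -1.86 (SE 0.22; limma, adjusted p = 5.87e-05) for SCSC, while rNCSC and SCSC differed by -0.04 (interval -0.54 to 0.47). Hoxa10 was at 9.98, 9.97 and 9.79 in BMP NCSC, above all SCSC arrays and inside the span of rNCSC. Its differences were -1.48 (SE 0.48; limma, adjusted p = 0.0191) for SCSC and 0.28 (interval -0.81 to 1.38) for rNCSC. The SCSC call was lost without SCSC replicate 2, at -1.17. Hoxa9 was at 11.81, 12.02 and 11.52 in BMP NCSC, above all SCSC arrays, with a difference of -0.86 for SCSC (limma, adjusted p = 0.0548) and 0.29 for rNCSC. Hoxa5, which acts in the lung and in breathing motor neurons, had means of 11.03, 10.89 and 10.65 in rNCSC, SCSC and BMP NCSC and was not called.

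Hoxa7 and Hoxd8 were the tested genes with the greatest fitted differences above 0 against BMP NCSC. Hoxa7 was at 6.93, 6.57 and 6.46 in BMP NCSC, below all SCSC arrays and overlapping rNCSC. Its difference was 1.54 for SCSC (SE 0.70; limma, adjusted p = 0.0726) and 1.15 for rNCSC (SE 0.70; limma, adjusted p = 0.165), neither called. With the 6 SCSC and BMP NCSC arrays alone, so that the rNCSC spread did not enter, it was called higher in SCSC (SE 0.33; limma, adjusted p = 0.00429). Hoxd8, a trunk gene, was at 8.42, 9.004 and 8.22 in rNCSC, 8.97, 8.34 and 8.14 in SCSC and 7.22, 8.08 and 7.52 in BMP NCSC. The BMP NCSC arrays were the lowest. The differences of 0.94 (limma, adjusted p = 0.0189) and 0.87 (limma, adjusted p = 0.0253) were under the size limit of 1. The other tested Hoxd8 probe set gave smaller differences, 0.45 for rNCSC (limma, adjusted p = 0.0814) and 0.14 for SCSC (limma, adjusted p = 0.55). Its BMP NCSC arrays, at 6.90, 7.16 and 7.66, overlapped both other groups. Without rNCSC replicate 3 the rNCSC difference of Hoxd8 was 1.11 and that of Hoxa7 1.81, and both were called.

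In HoxB the call fell on Hoxb9, at the high-numbered end of the tested genes. It was at 7.91, 7.56 and 9.54 in rNCSC, 8.94, 7.42 and 7.89 in SCSC and 10.59, 10.70 and 10.51 in BMP NCSC. No rNCSC or SCSC array reached the BMP NCSC arrays. The differences were -2.26 (SE 0.53; limma, adjusted p = 0.0039) and -2.52 (SE 0.53; limma, adjusted p = 0.00206) for rNCSC and SCSC. The other 5 HoxB genes stayed within 1 of BMP NCSC in both comparisons. Hoxb3, a hindbrain and neck gene, came to -0.73 (limma, adjusted p = 0.00653) and -0.79 (limma, adjusted p = 0.0042), and Hoxb5, active in enteric crest, to -0.64 and -0.998. The hindbrain gene Hoxb2, at means of 8.74, 8.42 and 8.10 in rNCSC, SCSC and BMP NCSC, lay the other way, and Hoxb6, at 8.72, 8.61 and 8.66, differed by 0.06 in rNCSC (interval -0.26 to 0.37) and -0.06 in SCSC (-0.37 to 0.26). The probe set shared by Hoxb8 and Hoxb7 was at means of 9.09, 9.24 and 8.33, while the Hoxb7 probe set reached 3.16 at most.

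On the Hoxd10 side of HoxD, BMP NCSC was at 5.38, 6.25 and 5.27 for Hoxd9 and 5.21, 6.55 and 4.88 for Hoxd10, above all SCSC arrays for both. The SCSC differences were -1.14 (SE 0.91; limma, adjusted p = 0.273) and -3.01 (SE 1.48; limma, adjusted p = 0.0914), neither called in the model whose spread includes rNCSC. With the 6 arrays of SCSC and BMP NCSC alone the adjusted p (limma) was 0.00524 for Hoxd9 and 0.000372 for Hoxd10, and both were called, in a direction the filter had set. The rNCSC differences were 0.44 for Hoxd9 and -1.16 for Hoxd10, neither called. Without rNCSC replicate 3 they were -0.83 (limma, adjusted p = 0.0228), under the size limit, and -3.25 (limma, adjusted p = 0.000195), which was called. With that array left out both genes reached 5 on BMP NCSC arrays alone, so these directions were set by the filter too.

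On the other side, transcripts around Hoxd3 were lower in BMP NCSC. Hoxd3 itself, named after its values were seen, was at 3.96, 4.54 and 5.12 in rNCSC, 4.32, 4.67 and 4.49 in SCSC and 3.52, 3.62 and 3.27 in BMP NCSC, too low to be tested. Both probe sets shared by Hoxd4 and Hoxd3 lay higher on every rNCSC and SCSC array than on any BMP NCSC array. The first had means of 5.68, 5.41 and 4.86 in rNCSC, SCSC and BMP NCSC, and its differences of 0.81 and 0.55 were under the size limit. The other had means of 5.48, 5.17 and 3.53 and was called higher, by 1.95 in rNCSC (limma, adjusted p = 0.000247) and 1.64 in SCSC (limma, adjusted p = 0.000687). Hoxd3os1, an antisense transcript of this region, was at 7.88, 7.60 and 8.14 in rNCSC, 7.37, 6.88 and 6.83 in SCSC and 3.02, 3.96 and 3.52 in BMP NCSC. It was called higher by 4.37 (limma, adjusted p = 7.41e-07) and 3.53 (limma, adjusted p = 2.6e-06). These shared probe sets and Hoxd3os1 reached 5 on no BMP NCSC array and passed the filter through rNCSC and SCSC alone. Their direction was thus set by the filter, and differences with a BMP NCSC mean under 4 are of uncertain size. Overlapping transcripts here cannot be told apart from these values. Hoxd1, at the cluster's end, reached 2.55 at most.

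**Figure D5:**
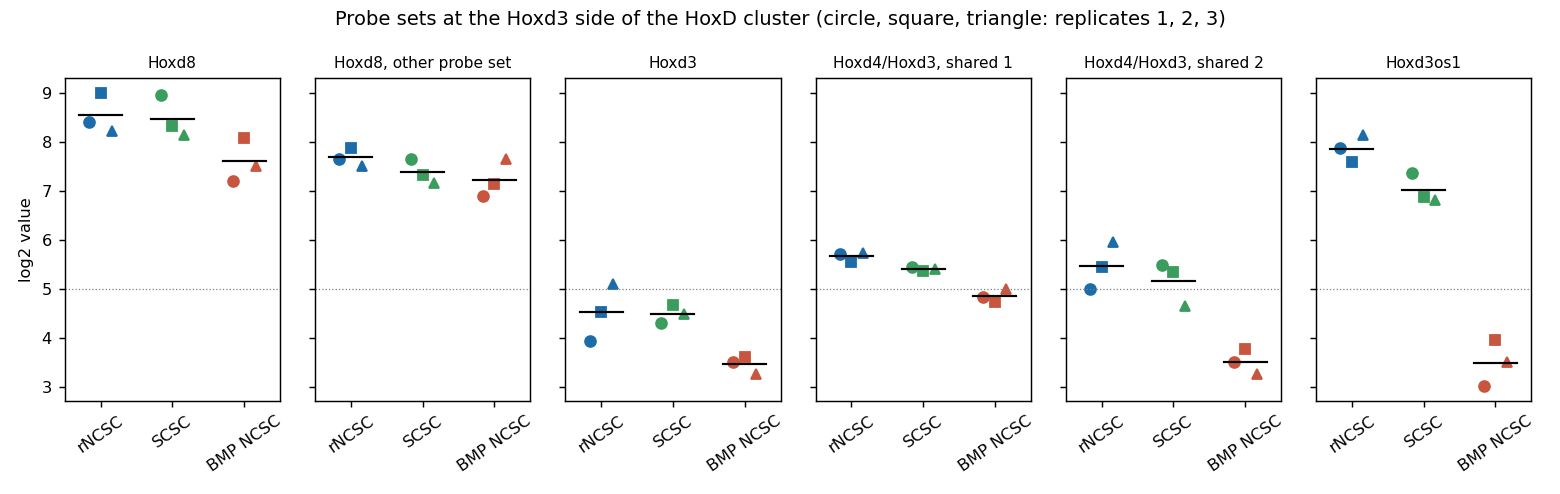
Log2 values (vertical axis) of 6 probe sets from the Hoxd8 to Hoxd3 side of HoxD on the arrays of rNCSC (blue), SCSC (green) and BMP NCSC (red), with a line at each group mean and a dotted line at 5. The BMP NCSC mean is the lowest in each panel, at 7.61, 7.24, 3.47, 4.86, 3.53 and 3.50 from left to right.

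Genes that work with or on the Hox genes were taken from fixed lists, and 0 members of any of these lists were called between rNCSC and SCSC. Among the TALE cofactors, homeodomain partners that bind DNA with Hox proteins, 3 of 6 tested were higher in rNCSC and in SCSC than in BMP NCSC and 0 lower, beside 21.3% and 24% of all genes higher and 22.6% and 22.9% lower. They were Meis1 (3.45 and 3.75 for rNCSC and SCSC), Pknox1 (1.77 and 1.96) and Pbx3 (1.23 and 1.06). Of 8 upstream regulators, 2 were higher and 4 lower in both comparisons, to be read against those shares. Gbx2, a factor of the midbrain and hindbrain border, differed by 4.74 and 4.05, and Gmnn, a replication inhibitor that also binds Polycomb and Hox proteins, by 3.27 and 3.66. Cyp26b1, which breaks down retinoic acid, was lower by a difference of -5.06 and -5.11, and the receptor Rarg by -2.52 and -2.71. Kdm6a differed by -1.26 and -1.29, at means of 9.17, 9.15 and 10.44 in rNCSC, SCSC and BMP NCSC. Gbx2 reached 5 on no BMP NCSC array, and Cyp26b1 and Rarg on BMP NCSC arrays alone, so their directions were set by the filter. The sizes for Gbx2 and Cyp26b1 are uncertain, with a BMP NCSC mean of 2.48 for Gbx2 and rNCSC and SCSC means of 3.50 and 3.44 for Cyp26b1. Of 21 Polycomb and MLL subunits, 8 were higher in each comparison, and 2 lower in rNCSC and 3 in SCSC, beside the same shares of all genes. The methyltransferase Ezh2 differed by 3.71 and 3.79 and its relative Ezh1 by -4.35 and -4.66. Ezh1 and Cbx7, both called lower in both comparisons, reached 5 on BMP NCSC arrays alone, so their directions were set by the filter. Cbx2, among those called higher, reached 5 on no BMP NCSC array, which set its direction too. The size for Ezh1 in SCSC is uncertain, at a mean of 3.82.

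Genes that flank the clusters without being Hox genes were listed too. Of 10 tested, 3 were higher in rNCSC and 5 in SCSC than in BMP NCSC, and 1 was lower in both, beside 21.3% and 24% of all genes higher and 22.6% and 22.9% lower, with medians of 0.80 and 1.09. Mtx2, beside HoxD, differed by 1.74 and 1.77 and Cbx5, beside HoxC, by 2.48 and 2.63, while Calcoco1, also beside HoxC, differed by -1.13 and -1.42. Calcoco1 reached 5 on BMP NCSC arrays alone, so its direction was set by the filter. Hoxb5os, an antisense transcript of HoxB, was at 9.32, 8.96 and 11.88 in rNCSC, highest on replicate 3 as most Hox genes were, and was not called in any comparison. Of the forebrain and midbrain factors 1, Lhx2, was tested and was not called.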

How the data were processed

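Gene expression was measured on 9 arrays, 3 a group by the sample titles. The authors deposited log2 values, for which the submitters' processing notes name GCRMA without a version. That method estimates background from each probe's bases and equalizes the arrays. Unexpressed transcripts are pulled to the floor, so a difference is of uncertain size where either mean is under 4, and a change in total RNA would not show.

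Of 45101 probe sets, 34958 had 1 gene symbol, 932 several and 9211 none listed in the platform annotation. Each gene was represented by its probe set of highest mean and tested if at 5 or more on at least 3 arrays. limma 3.58.1 (R 4.3.3) fitted the 3 group means over 9 arrays (6 residual and 2.39 prior degrees of freedom), with two-sided p-values under Benjamini-Hochberg adjustment over 10320 genes. Confidence intervals are not adjusted. Probe sets were not mapped anew. Shared Hox probe sets and single probe sets were tested with all probe sets that passed the filter. Steps were tested on simulated data.

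Values on every array are given for Hox genes called in a comparison. They are also given where rNCSC and SCSC arrays did not overlap and the group means differed by at least 1. Other list genes given with a difference, cell type markers aside, were among the 4 called members of smallest p in their list. Gbx2 was an exception, with a larger p than Kdm6a. The members, lists and settings were chosen with earlier results of these data known. Promoters are RefSeq's (GRCm38.p6). Other settings were no filter, a filter at 4, other summaries of probe sets, the 6 arrays compared, a replicate block, centring, quantile normalization, a variance trend, other thresholds and each array left out.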

Additional observations from a re-analysis of the deposited data

How the results depend on the processing

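The 5 genes Hoxa3, Hoxb9, Hoxc4, Hoxc8 and Hoxc13 were called lower than BMP NCSC in both comparisons under every setting tried, Hoxc13 in a direction set by the filter. Between rNCSC and SCSC the called count was 0 higher and 0 lower except without an array, when it ranged from 0 to 2 higher (2 without rNCSC replicate 2). For rNCSC against BMP NCSC, higher calls were 1 with no filter or a filter at 4, 3 with no size limit and 0 to 2 with an array left out. With each probe set on its own, lower calls were 8 of 29 probe sets, not genes, with Hoxa3 and Hoxc6 each counted more than once. Lower calls were 5 to 8 with an array left out (8 without rNCSC replicate 3). The median there was -0.11 with no filter, which lets in unexpressed genes, and -0.91 to -0.16 with an array left out (-0.16 without rNCSC replicate 2). For SCSC against BMP NCSC, higher calls were 1 with no filter, a filter at 4, the 6 arrays alone or no size limit, and 0 to 1 with an array left out. Lower calls were 13 with no size limit, 5 at an adjusted p below 0.01 (limma) and 5 to 10 with an array left out (5 without SCSC replicate 2, 10 without rNCSC replicate 3).

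Signs turned only for differences that were not called. Between rNCSC and SCSC, Hoxa3 became 0.056 with the mean of its probe sets. With an array left out it ranged from -0.27 to 0.13, Hoxb9 from -0.35 to 0.68, Hoxc10 from -0.40 to 2.84 and Hoxc4 from -0.41 to 1.27. Between rNCSC and BMP NCSC, Hoxa10 ranged from -0.23 to 0.78, Hoxa9 from -0.038 to 0.75, Hoxc9 from -1.69 to 0.16 and Hoxd9 from -0.83 to 1.09. The causes were not tested. In SCSC against BMP NCSC, Hoxc10 lost its call in 8 of 18 settings and Hoxc9 in 10, at adjusted p of 0.101 and 0.123 at most (limma), and Hoxa10 in 2. Centring and quantile normalization moved the median gene by at most 0.02.

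The replicate numbers come from the sample titles. Deviations of same-numbered arrays correlated from 0.04 to 0.30, below 0.1 for replicate 1 and from 0.15 to 0.30 for replicate 2. Replicate 2 was the lowest array for 14 of 21 Hox genes in rNCSC, 12 in SCSC and 4 in BMP NCSC. The shares of all genes were 34%, 32% and 26.4%. Whether same-numbered arrays were prepared together is not given in the labels and was not tested. With a replicate block the Hox counts were 0 and 0 for rNCSC against SCSC, 0 higher and 5 lower for rNCSC against BMP NCSC and 0 higher and 7 lower for SCSC against BMP NCSC. With 3 arrays a group, signal near background (under about 4) and the wide spread of rNCSC limit what could be called.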
